A study of Homo sapiens with 6 samples.

Results

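Chromosome 4 was followed here as a unit, gene by gene from the end of its short arm to the end of its long arm, in RNA sequencing of SUM159, a human line from a breast cancer without hormone receptors or HER2. The 368 genes described were the protein-coding genes of chromosome 4 with a mean level of 8 CPM or more (a gene's count over its library's total, times 1e6) over the 6 libraries. They were taken from a table of 58336 genes, of which 2504 lay on this chromosome and 751 of those were protein-coding. A further 23 genes passed the level but were left out by name, among them chemokines, epidermal growth factor family ligands and genes of the respiratory chain. Chromosome 4 was chosen because its genes stood high in 1 library, clone 1 recovered from lungs with LM2 cells, set against cultured cells of the same clone. That ratio is therefore given as a description, with no test, and the other libraries and chromosomes are set beside it.

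The labels divide the cells by ITGB4, the integrin beta-4 subunit. Cultured cells gave 3 libraries: SUM159 ITGB4 high, and the untreated controls of ITGB4 low clone 1 and clone 3. The other 3 came from ITGB4 low cells that had been put into mouse lungs through the tail vein. These were clone 1 and clone 3 from lungs that also received LM2 cells, a subline of MDA-MB-231 selected for growth in the lung, and clone 1 from mice given bleomycin, a lung-injuring drug, by the trachea. All lung cells were kept in dishes overnight and sorted for the red fluorescent protein tdTomato on the next day, a step the 3 dish-grown libraries did not share. Each ITGB4 low group is built on 1 or 2 single clones, the mouse strain, age and number of mice per library were not given in the sources used here, and lungs with ITGB4 low cells but no LM2 cells or bleomycin were not analysed here. LM2 cells are human, so any reads from them cannot be told apart from those of SUM159 in gene counts. That 1 LM2 library is clone 3 rests on its title, since the treatment text names clone 1 alone.

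Human chromosome 4 is a long chromosome with few genes for its size. Its genes have no common pathway and include clusters of related genes as well as many unrelated ones. As general background, the RNA output of a stretch of chromosome also follows the number of DNA copies a cell carries, and sublines of breast cancer lines often differ in copies of whole arms. DNA was not analysed here, and the part of copy number in any result was not tested.

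Total counts ran from 13607953 to 22222121 per library, mitochondrial transcripts took 5.35% to 7.08% of them, and a floor of 3 counts, the limit a count of 0 allows, stood at 0.135 to 0.22 CPM (counting error only). ITGB4 stood at 25.9 and 24.6 CPM in control clones 1 and 3, at 384 CPM in the ITGB4-high library, and at 471, 442 and 306 CPM in LM2 clone 1, LM2 clone 3 and bleomycin clone 1. Markers of a mesenchymal triple-negative line were high (VIM 2174 to 3601 CPM), while ESR1, PGR, EPCAM and CDH1 summed to 0.19 to 0.55 CPM in the controls and the lung libraries. Over 7 leukocyte markers the sum was 1.24 to 2.29 CPM in controls and 1.41 to 6.28 CPM in lung libraries, with CD3E at 0 in all. Over 5 lung epithelial markers it was 5.75 to 6.44 against 3.65 to 4.28 CPM, with SFTPC and SCGB1A1 at 0. Within it AGER was higher in every lung library than in both controls, and NKX2-1 lower. Over 5 endothelial markers it was 72.8 to 108 against 2.56 to 11.2 CPM, with CDH5 at 0. Most of the control sum came from KDR, itself a gene of chromosome 4. Without KDR the endothelial sum was 2.01 to 2.44 CPM in controls and 2.402 to 9.49 CPM in lung libraries. The highest was bleomycin clone 1, with PECAM1 at 9.42 CPM. The 5 fibroblast markers summed to 120 to 153 CPM in controls and 127 to 820 CPM in lung libraries. The part of these markers in the results was not tested.

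The promoters of 4 genes are shown because the account turns on them: ZNF518B and SLC2A9, which stood higher in every lung library, and SRP72 and UBA6, which stood highest in LM2 clone 1 and nearer to their controls in the others. Each run holds 250 bases before and 50 after the RefSeq start of the gene on GRCh38.p14, read 5′ to 3′ on the gene's strand, with CpG pairs in capitals. They are ZNF518B (chr4:10457377-10457676, minus strand), SLC2A9 (chr4:10040221-10040520, minus), SRP72 (chr4:56467367-56467666, plus) and UBA6 (chr4:67701106-67701405, minus). The RefSeq start of SLC2A9 lies inside the longer GENCODE gene, which spans positions 9771153 to 10054936.
ZNF518B: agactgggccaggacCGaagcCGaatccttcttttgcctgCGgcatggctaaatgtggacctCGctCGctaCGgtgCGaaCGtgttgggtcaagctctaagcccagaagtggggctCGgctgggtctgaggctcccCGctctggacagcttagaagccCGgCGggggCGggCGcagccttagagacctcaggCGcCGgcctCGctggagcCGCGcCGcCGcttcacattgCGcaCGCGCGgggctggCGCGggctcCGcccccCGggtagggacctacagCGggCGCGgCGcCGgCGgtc
SLC2A9: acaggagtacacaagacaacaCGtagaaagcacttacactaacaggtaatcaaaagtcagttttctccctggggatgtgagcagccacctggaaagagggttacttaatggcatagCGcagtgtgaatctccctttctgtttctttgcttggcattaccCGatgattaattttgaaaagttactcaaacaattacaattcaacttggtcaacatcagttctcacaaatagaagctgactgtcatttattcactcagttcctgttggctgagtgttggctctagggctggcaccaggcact
SRP72: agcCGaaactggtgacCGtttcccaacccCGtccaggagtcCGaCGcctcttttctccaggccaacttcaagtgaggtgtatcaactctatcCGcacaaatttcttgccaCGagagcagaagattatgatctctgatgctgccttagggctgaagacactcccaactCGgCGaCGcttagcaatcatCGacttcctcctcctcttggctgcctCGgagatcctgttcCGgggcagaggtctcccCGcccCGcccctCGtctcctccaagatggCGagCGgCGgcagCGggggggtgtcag
UBA6: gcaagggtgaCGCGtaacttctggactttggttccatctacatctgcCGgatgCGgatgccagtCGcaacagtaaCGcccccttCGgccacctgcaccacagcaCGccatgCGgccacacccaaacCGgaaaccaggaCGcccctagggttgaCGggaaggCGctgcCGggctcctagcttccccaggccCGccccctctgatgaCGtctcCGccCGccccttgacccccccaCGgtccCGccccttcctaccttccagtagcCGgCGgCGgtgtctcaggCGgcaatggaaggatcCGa
These windows hold 35, 3, 20 and 25 CpG pairs, so the SLC2A9 window is the poor one among the 4. RefSeq promoters matched 323 of the 368 members and 7917 of the 9517 protein-coding genes at 8 CPM or more on all chromosomes. The median number of CpG pairs was 27 in both sets, and the median GC content 65.3% and 65.7%. On either strand, TATAAA occurred in 6.19% of member promoters and 4.86% of all, CCAAT in 35.6% and 37.0%, TGANTCA in 4.95% and 4.11%, and TGACGTCA in 6.50% and 3.69%. None of these letter strings occurs in the 4 windows shown, and none of the strings contains another. In CpG pairs and GC content the promoters of the chromosome were close to those of the genome; the matches are descriptions of letters, not sites.

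In LM2 clone 1 the genes of the chromosome stood high as a set. Summed over the 368 genes, the level was 32879 CPM in control clone 1, 33776 in control clone 3, 44513 in LM2 clone 1, 32619 in LM2 clone 3, 32418 in bleomycin clone 1 and 30493 in ITGB4-high. The LM2 clone 1 library lies above the other 5, which differ little among themselves. Per gene, the median log2 ratio of LM2 clone 1 to control clone 1 (log2 of CPM plus 0.5) was 0.38, a ratio of 1.30, where the 9517 genes of all chromosomes had a median of 0.02. The offset lay in the middle of the distribution and not in a few genes: 280 of 368 members (76.1%) had a ratio above 1, against 51.5% of all genes, and 120 members (32.6%) were higher by 1.5-fold or more against 15% of all. Of the members, 33 (8.97%) were lower by 1.5-fold or more, against 13.8% of all. These are the values that chose the chromosome.

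**Figure D1:**
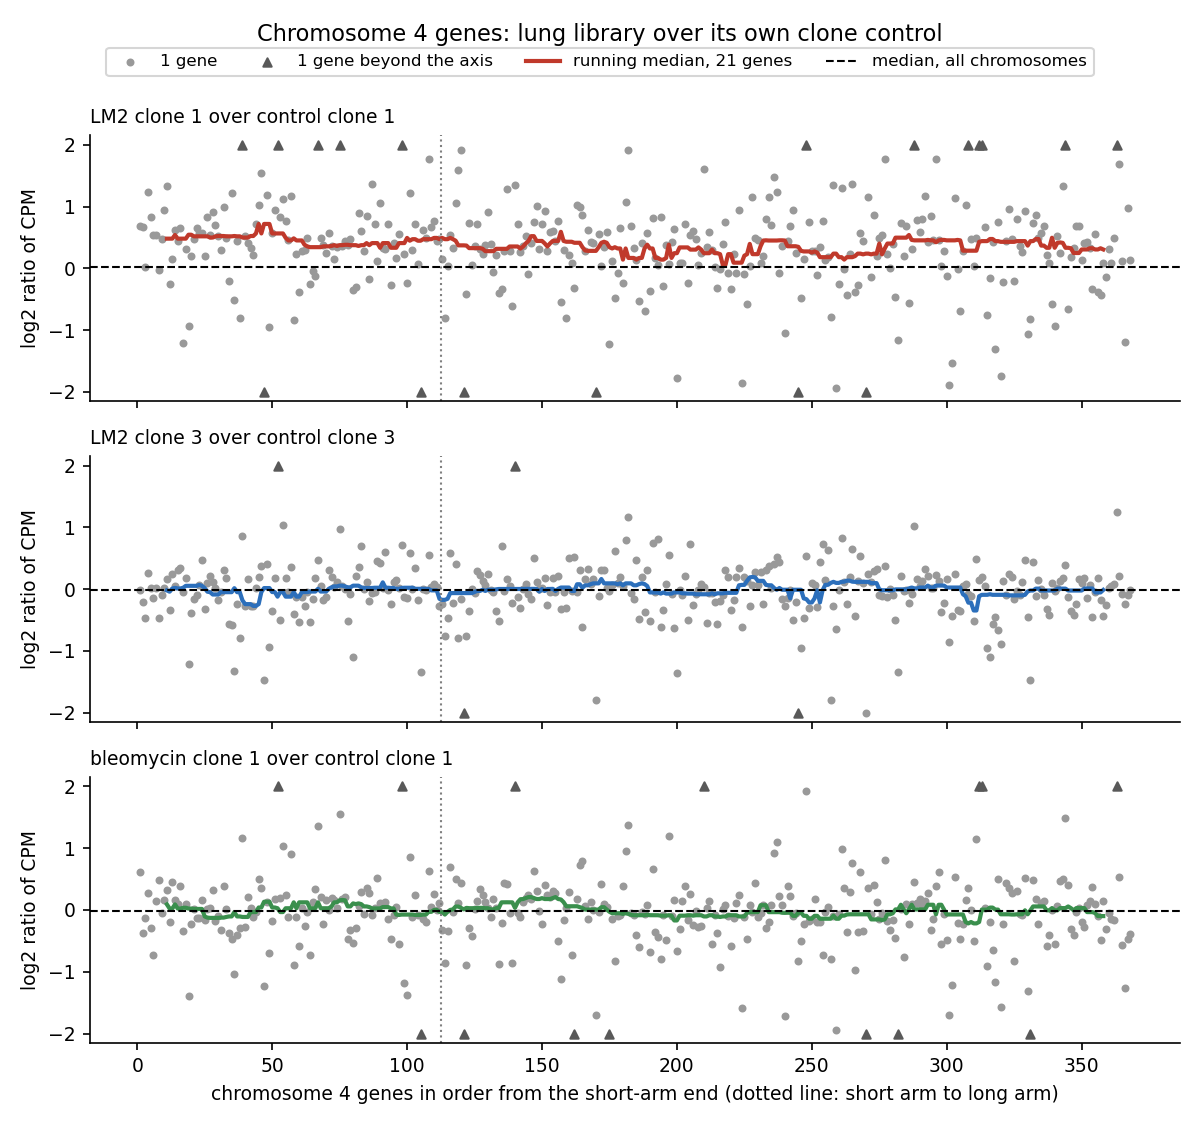
The log2 ratio of each of the 368 chromosome 4 genes in a lung library over the control of its own clone, in gene order from the short-arm end, with a running median of 21 genes (coloured line) and the median over all chromosomes (dashed). The running median stays above the dashed line in all 348 windows for LM2 clone 1 and crosses it for the other libraries; triangles mark 18, 4 and 14 genes beyond the axis.

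The pair that shares no library with that ratio showed no such offset. For LM2 clone 3 over control clone 3 the members' median was 0.00, against -0.02 over all genes, with quartiles from -0.24 to 0.19. A ratio above 1 was found for 184 of 368 members (50%) against 47.7% of all genes, 21 members (5.71% against 4.31%) were higher by 1.5-fold or more and 29 (7.88% against 6.9%) lower. For bleomycin clone 1 over control clone 1, which shares the control, the median was -0.03 against -0.01, with 179 members (48.6%) above 1 against 48.6% of all genes. The members higher by 1.5-fold numbered 33 (8.97% against 9.27%), and those lower 47 (12.8% against 9.73%). With the same trigger in the other clone, and with the other trigger in the same clone, the centre of the chromosome lay within 0.02 of that of all genes.

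The difference was also present without either control. LM2 clone 1 over LM2 clone 3 had a members' median of 0.37 against 0.00 over all genes, with 284 of 368 members (77.2%) above 1 against 50.1% of all. LM2 clone 1 over bleomycin clone 1, the same clone under the other trigger, had 0.41 against 0.04, with 305 members (82.9%) above 1 against 54.3% of all. The 2 controls differed from each other by a median of -0.04, both over the members and over all genes. LM2 clone 1 was the highest of the 6 libraries for 224 members (60.9%, against 24.2% of all genes) and the lowest for 15 (4.08%, against 21.8%). The ratios with LM2 clone 1, the library the chromosome was chosen on, restate the level of that library and carry no test.

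**Figure D2:**
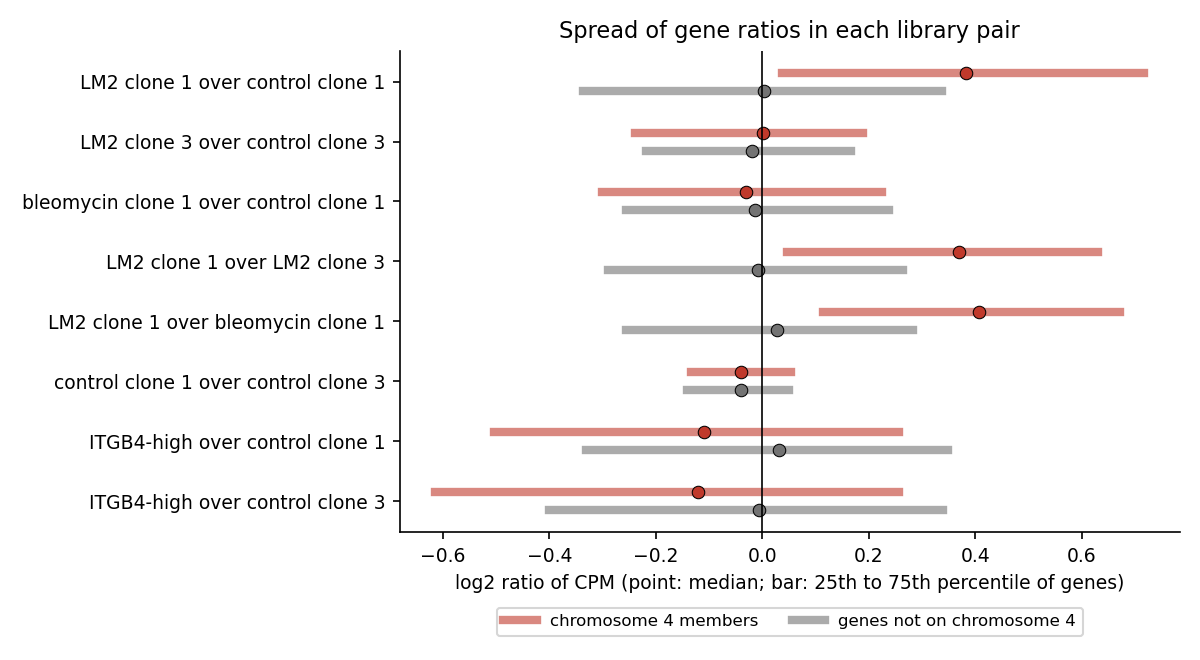
Median (point) and 25th to 75th percentile (bar) of the log2 ratio of CPM for the 368 chromosome 4 members and for the 9126 genes not on chromosome 4, in 8 pairs of libraries. The members sit to the right of the other genes in the 3 pairs with LM2 clone 1 on top, overlap them in LM2 clone 3, bleomycin clone 1 and the control pair, and sit to the left in the 2 ITGB4-high pairs.

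Genes near their control level in LM2 clone 3 stood high in LM2 clone 1 too. Of the members, 214 stood within 1.2-fold of their control in LM2 clone 3, a limit chosen after the data were seen. In LM2 clone 1 the median log2 ratio of these 214 was 0.41 (quartiles 0.20 to 0.68), and 180 of them (84.1%) lay above 0, against 53.0% of the 5731 genes of other chromosomes within the same limit, whose median was 0.03. In bleomycin clone 1 the 214 had a median of -0.002. Across the 368 members, the ratios in LM2 clone 1 and LM2 clone 3 had a Pearson correlation of 0.72 and a Spearman correlation of 0.53, close to 0.63 and 0.52 across the 9126 other genes; these pairs share no library but share trigger and steps through the lung. Genes are not independent replicates, and no p is given. The members thus had gene-by-gene differences in common between the clones, as other genes did, and a higher centre in LM2 clone 1. That centre is what chose the chromosome, and how it combines with the shared differences was not tested.

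Both arms carried the difference. In LM2 clone 1 the median log2 ratio was 0.48 over the 112 short-arm genes and 0.33 over the 256 long-arm genes; the gap between the arms holds no member between positions 49589529 and 51843000 of GRCh38. Against LM2 clone 3 the arms stood at 0.50 and 0.33. In bins of 10 Mb, all 19 medians lay above 0 in LM2 clone 1, from 0.20 at 170 to 180 Mb (10 genes) to 0.57 at 160 to 170 Mb (11 genes), and from 0.23 to 0.54 over the 9 bins with 20 genes or more. In LM2 clone 3, 11 of 19 bins lay above the median of all genes, with a range of -0.16 to 0.19, and in bleomycin clone 1 also 11 of 19, with a range of -0.12 to 0.18. A running median of 21 genes lay above that of all genes in 348 of 348 windows for LM2 clone 1, 194 windows for LM2 clone 3 and 173 for bleomycin clone 1. The windows overlap, so they are not separate measurements. The lowest window stood at 0.06 in LM2 clone 1, where all genes had 0.02. For LM2 clone 1 over LM2 clone 3 the running median reached -0.01 at its lowest, with 346 of 348 windows above that of all genes, and the bin from 60 to 70 Mb (6 genes) stood at -0.18. Bin medians ranged nearly as widely in LM2 clone 3 and bleomycin clone 1, so whether the offset itself was uneven along the chromosome was not tested.

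The most abundant genes of some bins show the LM2 clone 1 level at single loci. At the short-arm end, NSD2, a histone methyltransferase, stood at 323 and 326 CPM in control clones 1 and 3, and at 437, 403 and 344 CPM in LM2 clone 1, LM2 clone 3 and bleomycin clone 1. WDR1, which helps take actin filaments apart, was at 178, 232, 317, 164 and 205 CPM in the same order, with LM2 clone 1 the highest. DHX15, an RNA helicase of the spliceosome, was at 284, 303, 339, 277 and 317 CPM, with a smaller gap. UBA6, an enzyme that activates ubiquitin, was at 160, 173, 389, 193 and 214 CPM. Its LM2 clone 1 level is well clear of the others, while the other 2 lung libraries lie closer to the controls. ABCE1, which recycles ribosomes, was at 317, 314, 477, 327 and 357 CPM, and LRBA, a vesicle traffic protein needed for immune regulation, at 179, 185, 393, 220 and 259 CPM. SETD7, a lysine methyltransferase, was at 343, 366, 485, 341 and 309 CPM. In these 3 genes of the middle of the long arm LM2 clone 1 was again the highest.

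The most abundant genes of some other bins had another pattern. HMGB2, a chromatin protein abundant in dividing cells, was at 374 and 387 CPM in control clones 1 and 3, and at 251, 415 and 372 CPM in LM2 clone 1, LM2 clone 3 and bleomycin clone 1, lowest in LM2 clone 1. H2AFZ, a histone variant, was at 217 and 226 CPM in the controls and 226, 223 and 179 CPM in the lung libraries, with little separation. USP53, a protein of the ubiquitin protease family, was at 1615 and 1622 CPM in the controls and at 1156, 837 and 1145 CPM in the lung libraries, all lower. SLC39A8, a zinc and manganese importer, was at 165 and 218 CPM, then 507, 223 and 1040 CPM, so that here bleomycin clone 1 exceeded LM2 clone 1. FGF2, a growth factor, was at 426 and 366 CPM, then 724, 610 and 257 CPM; it overlaps NUDT6 on the other strand, and the strand setting of the counts was not given, so reads of the overlap cannot be assigned. Of the 368 members, 88 had a ratio in LM2 clone 1 that was not above 1, HMGB2 and USP53 among them. LIMCH1 and PALLD, also the most abundant genes of their bins, were among them too, with log2 ratios of -0.23 and -0.81.

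Set against the other chromosomes, chromosome 4 ranked 2 of 23 in LM2 clone 1. Chromosome 11 stood at 0.48 and chromosome 13 at 0.31, and the next highest at 0.03; the lowest was chromosome 9 at -0.08. In LM2 clone 3 chromosome 4 ranked 6, within a range of -0.08 to 0.04 for the others, and in bleomycin clone 1 it ranked 18, within -0.05 to 0.12. Chromosome 11 had another profile in bleomycin clone 1. Its 117 genes that start under 28 Mb had a median of 0.59 there and 0.49 in LM2 clone 1, whereas the 434 genes from 28 Mb on had -0.04 and 0.47. Chromosome 4 had no such stretch in bleomycin clone 1, where its bins of 20 genes or more reached 0.18. In LM2 clone 1 over bleomycin clone 1 chromosome 4 ranked 1, with 0.41 against 0.38 for chromosome 11.

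**Figure D3:**
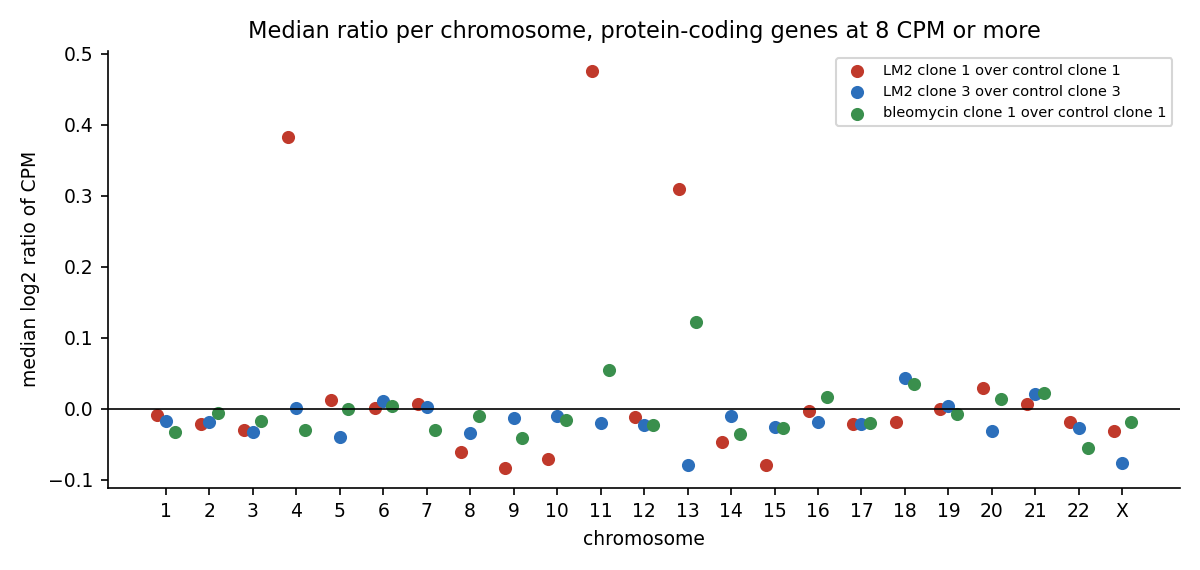
Median log2 ratio of CPM for the protein-coding genes at 8 CPM or more on each chromosome, for the 3 lung libraries over the control of their own clone. Chromosomes 4, 11 and 13 stand at 0.38, 0.48 and 0.31 in LM2 clone 1, with the others at 0.03 or less, and chromosome 4 lies among the others in LM2 clone 3 and bleomycin clone 1.

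In LM2 clone 1, the library the chromosome was chosen on, members stood above other genes in each class of transcript composition, length and level. As that ratio chose the chromosome, these classes describe it. The part of GC content, length or level was not tested. Members' transcripts had a median GC content of 42.1%, against 47.5% for genes of other chromosomes, and a median length of 4195 against 3681.5 bases. When all genes were cut into 10 equal classes of GC content, members had the higher LM2 clone 1 median in 10 of 10, from 0.16 (7 members) to 0.66 against -0.04 to 0.05 for the others. The same held in 10 of 10 classes of length (0.29 to 0.49) and 10 of 10 classes of mean CPM (0.20 to 0.54 against -0.17 to 0.11). In LM2 clone 3 members were the higher in 7, 7 and 5 of 10 classes, and in bleomycin clone 1 in 2, 6 and 4.

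Grouped by function, the largest shares of members with a ratio above 1 in LM2 clone 1 were in RNA processing and in membrane traffic. The lists were written from general knowledge, placed 257 of the 368 members in 9 groups and left 111 in none. Over all 368 members 76.1% had a ratio above 1 in LM2 clone 1, and over all genes 51.5%. Genes of the same functions on other chromosomes were not compared, so the part of function was not tested. Of 37 genes for RNA processing and translation, 36 had a ratio above 1 in LM2 clone 1, and the list's median log2 ratio was 0.55 there, 0.05 for LM2 clone 3 and 0.09 for bleomycin clone 1; the median over all genes was 0.02, -0.02 and -0.01. SRP72, a protein of the signal recognition particle that guides secreted proteins to the endoplasmic reticulum, was at 344 and 311 CPM in control clones 1 and 3 and at 645, 369 and 352 CPM in LM2 clone 1, LM2 clone 3 and bleomycin clone 1. HNRNPD, an RNA-binding protein that acts on mRNA decay, was at 545 and 504 CPM, then 841, 631 and 493 CPM. HNRNPDL, its relative, was at 449 and 471 CPM, then 605, 497 and 490 CPM. In these 3 LM2 clone 1 was the highest library, and only SRP72 and HNRNPDL among them had all lung libraries above both controls.

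Membrane traffic, secretion and autophagy held 37 members, of which 36 lay above 1 in LM2 clone 1, with a median of 0.45, and medians of 0.00 and 0.02 in LM2 clone 3 and bleomycin clone 1. USO1, a tether of vesicles at the Golgi, was at 225 and 231 CPM in the controls and at 428, 262 and 297 CPM in LM2 clone 1, LM2 clone 3 and bleomycin clone 1. SCARB2, a lysosomal membrane protein, was at 273 and 293 CPM, then 371, 285 and 332 CPM. Ubiquitin and protein turnover held 27, of which 23 lay above 1, with medians of 0.48, 0.01 and 0.02; UBE2D3, a ubiquitin-conjugating enzyme, was at 269 and 296 CPM, then 407, 282 and 298 CPM. KLHL5, of the family of adaptors for ubiquitin ligases, was at 258 and 265 CPM, then 425, 258 and 262 CPM. For these genes LM2 clone 1 was the high library and LM2 clone 3 lay within the range of the controls for all but USO1.

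Chromatin and transcription had 26 of 35 members above 1 in LM2 clone 1, with medians of 0.41, 0.01 and 0.01 in LM2 clone 1, LM2 clone 3 and bleomycin clone 1. PDS5A, a cohesin regulator, was at 451 and 428 CPM in the controls and 508, 475 and 466 CPM in the lung libraries in that order. Mitochondria and metabolism had 32 of 46 above 1, with medians of 0.30, -0.02 and -0.05. PAICS, of purine synthesis, was at 463 and 484 CPM, then 599, 508 and 504 CPM, and ACSL1, which activates fatty acids, at 617 and 597 CPM, then 658, 444 and 685 CPM. DNA repair, replication and cell division had 21 of 29 above 1, with medians of 0.25, 0.10 and 0.11. That list stood at 0.07 for LM2 clone 1 over LM2 clone 3 and 0.14 over bleomycin clone 1, the lowest of the 9 lists in both. CCNI, a cyclin that does not follow the division cycle, was at 463 and 473 CPM, then 567, 461 and 412 CPM.

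Signalling and structural genes spread further. Innate immune and inflammatory signalling had 11 of 15 members above 1 in LM2 clone 1, with medians of 0.56, 0.07 and 0.16 in the 3 lung libraries in the same order; ANXA5, which binds phosphatidylserine on membranes, was at 285 and 324 CPM in the controls, then 478, 263 and 253 CPM. RBPJ, the DNA-binding partner of Notch, was at 200 and 205 CPM, then 271, 206 and 231 CPM. Growth factor and developmental signalling had 15 of 24 above 1, with medians of 0.44, 0.05 and -0.24; SH3BP2, an adaptor protein, was at 117 and 104 CPM, then 175, 145 and 131 CPM, and PPP3CA, the catalytic subunit of calcineurin, at 192 and 187 CPM, then 228, 199 and 161 CPM. Matrix, adhesion and cytoskeleton was the 1 list below 0 in LM2 clone 1, with 13 of 27 above 1 and medians of -0.12, -0.33 and -0.49. SEPT11, a septin, was at 636 and 615 CPM, then 436, 491 and 292 CPM. LIMCH1, an activator of non-muscle myosin, was at 515 and 562 CPM, then 439, 508 and 199 CPM, and FAT1, a giant cadherin, at 332 and 360 CPM, then 658, 336 and 241 CPM. Even this list stood higher in LM2 clone 1 than in the other lung libraries, by medians of 0.30 over LM2 clone 3 and 0.41 over bleomycin clone 1. Over those same pairs the other 8 lists had medians of 0.07 to 0.53 and 0.14 to 0.49.

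**Figure D4:**
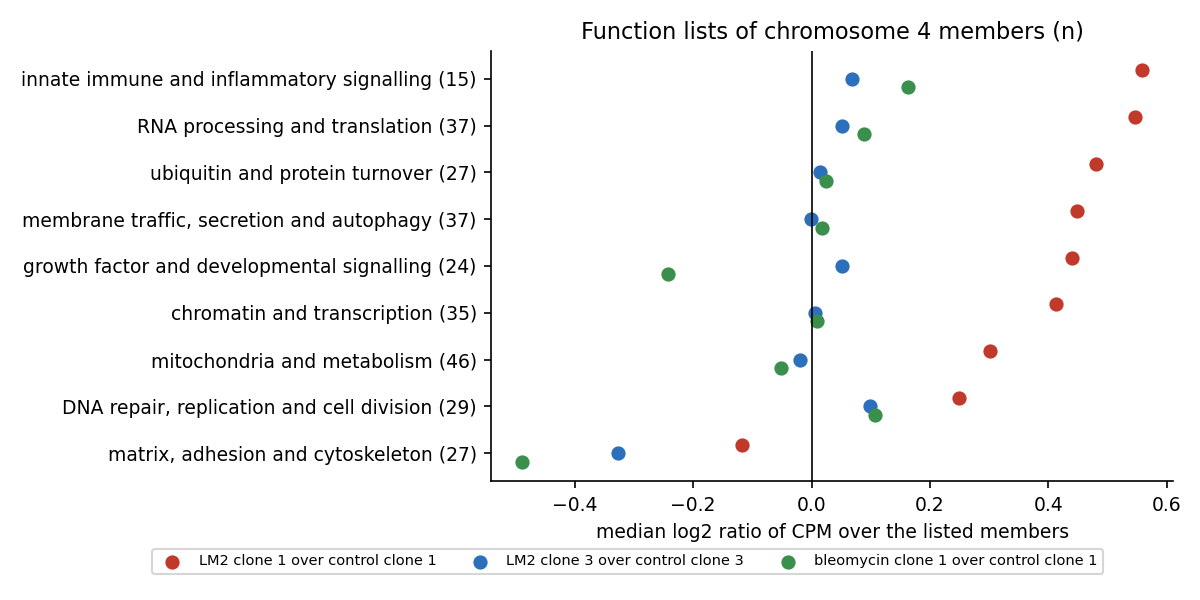
Median log2 ratio of CPM over the listed chromosome 4 members (number in brackets) for the 3 lung libraries over the control of their own clone. LM2 clone 1 lies to the right of LM2 clone 3 and bleomycin clone 1 in all 9 lists, from -0.12 for matrix, adhesion and cytoskeleton to 0.56 for innate immune signalling.

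With replicates, 1 member passed the test of lung cells against controls. In edgeR's quasi-likelihood test with Benjamini-Hochberg adjustment over 15673 genes, 1 of 368 members (0.272%) had an adjusted p under 0.05, against 0.498% of all genes tested. By unadjusted p under 0.05 it was 88 members (23.9% against 20.5%), and by DESeq2 46 (12.5% against 8.06%). The members' share was thus lower than that of all genes by edgeR's adjusted p, on 1 member, and somewhat higher by the other rules. Here and in the contrasts below, the genes tested include non-coding genes and genes under 8 CPM, which the members do not. The shares are therefore not of like sets. The member called by edgeR was ZNF518B, a zinc finger protein (ENSG00000178163, GRCh38 positions 10439874 to 10457410 on the minus strand). Its level was 26.3 CPM in control clone 1, 27.1 in control clone 3, 58.0 in LM2 clone 1, 56.1 in LM2 clone 3, 54.6 in bleomycin clone 1 and 79.6 in ITGB4-high. The lung libraries lie close together and all above both controls, and the ITGB4-high library lies above them. The fitted log2 change was 1.07 (SE 0.12), with an edgeR adjusted p of 0.0379, and ZNF518B rose in the 3 lung libraries. The call ended with the clone as a block (edgeR adjusted p = 0.0683, 0 members called), and without bleomycin clone 1 (0.133), control clone 1 (0.353) or control clone 3 (0.524).

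The 3 other contrasts with the controls called no member in edgeR. For LM2 cells (n = 2) against controls it was 0 of 368 against 0.0319% of all genes by edgeR's adjusted p, 80 members (21.7% against 15.6%) by unadjusted p under 0.05, and 25 (6.79% against 3.92%) by DESeq2. With the clone as a block 1 member passed, SLC2A9, at an edgeR adjusted p of 0.0317. For bleomycin (n = 1) it was 0 against 0.0255%, 66 (17.9% against 14.5%) and 23 (6.25% against 3.57%) by the same 3 rules. The test of whether the lung response of clone 1 differed from that of clone 3, which takes clone 1 under both triggers as replicates, called 0 of 368 members and 0 (0%) of all genes by edgeR, and 8 members (2.17% against 1.99%) by unadjusted p. This fit had 1 residual degree of freedom, and it averages LM2 clone 1 with bleomycin clone 1, so it is not a test of LM2 clone 1 alone; DESeq2 was not run on it.

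Counting libraries that do not overlap, 116 members (31.5%) had all 3 lung libraries above both controls, against 22.6% of all genes, and 56 (15.2%) had all below, against 25.5%. LM2 clone 1 enters these counts. Without it, 121 members (32.9%) had the other 2 lung libraries above both controls against 29.5% of all genes, and 114 (31.0%) had them below against 32.2%. The surplus of higher and the deficit of lower genes were thus smaller without that library.

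Among members whose lung libraries all lay above both controls, 8 more were named by the size of the fitted change; none passed the adjusted threshold in edgeR. SLC2A9, a urate transporter, was at 1.39 and 1.38 CPM in control clones 1 and 3, at 70.2, 32.0 and 21.5 CPM in LM2 clone 1, LM2 clone 3 and bleomycin clone 1, and at 64.6 CPM in ITGB4-high. Its fitted log2 difference was 4.89 (SE 0.64, edgeR adjusted p = 0.0513). SULT1E1, which inactivates estrogen by adding sulfate, was at 4.16 and 3.26 CPM in the controls, 11.3, 21.1 and 26.4 CPM in the lung libraries and 1.46 CPM in ITGB4-high (edgeR adjusted p = 0.0735). Among its lung libraries LM2 clone 1 was the lowest.

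The other 6 named higher genes have separate roles. TLR2, the receptor for bacterial lipoproteins, was at 17.8 and 25.6 CPM in the controls, 298, 29.5 and 223 CPM in LM2 clone 1, LM2 clone 3 and bleomycin clone 1, and 120 CPM in ITGB4-high. TNIP3, which restrains NF-kappa-B signalling, was at 6.10 and 8.96 CPM, then 96.7, 13.3 and 24.6 CPM, and 17.1 CPM in ITGB4-high. In both, clone 3 lay just above its control and the clone 1 libraries far above. HHIP, which binds and sequesters Hedgehog ligands, was at 12.1 and 7.77 CPM, then 125, 16.2 and 16.7 CPM. VEGFC, a growth factor for lymphatic vessels, was at 3.60 and 4.28 CPM, then 32.9, 5.75 and 11.03 CPM. TMEM131L was at 20.9 and 26.0 CPM, then 177, 28.9 and 102 CPM. RBM47, an RNA-binding protein that acts on splicing and mRNA stability, was at 4.09 and 5.24 CPM, then 24.4, 8.95 and 23.1 CPM, and at 1.02 CPM in ITGB4-high. Their edgeR adjusted p-values ran from 0.120 for RBM47 to 0.262 for HHIP. In all 6, LM2 clone 3 was the lowest of the lung libraries.

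The members described next had all lung libraries below both controls, and none passed the threshold either. KDR, the main VEGF receptor of endothelium, was at 70.8 and 105 CPM in the controls, 0.155, 6.52 and 1.73 CPM in LM2 clone 1, LM2 clone 3 and bleomycin clone 1, and 3.07 CPM in ITGB4-high (edgeR adjusted p = 0.0847). The LM2 clone 1 value rests on 2 counts, under the floor of 0.22 CPM. SCD5, a fatty acid desaturase, was at 21.3 and 28.6 CPM, then 3.72, 7.86 and 6.22 CPM (fitted log2 difference -2.07, SE 0.33, edgeR adjusted p = 0.0636). PCDH18, a protocadherin, was at 19.5 and 28.8 CPM, then 0.930, 6.84 and 3.08 CPM, and GABRG1, a GABA receptor subunit, at 17.2 and 15.1 CPM, then 1.08, 5.63 and 0.897 CPM. In all 4 the lower control lay further from the highest lung library than from the other control. PALLD, which bundles actin, was at 416 and 537 CPM, then 237, 193 and 69.4 CPM. MYOZ2, a protein of the muscle Z-disc, was at 20.1 and 30.2 CPM, then 1.63, 6.14 and 11.2 CPM. RNF150, a RING finger protein, was at 33.3 and 44.9 CPM, then 14.6, 17.4 and 3.72 CPM. The fitted edgeR adjusted p-values of these 3 ran from 0.174 to 0.189. Differences of this size in single genes were much larger than the chromosome's offset and lay against it.

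**Figure D5:**
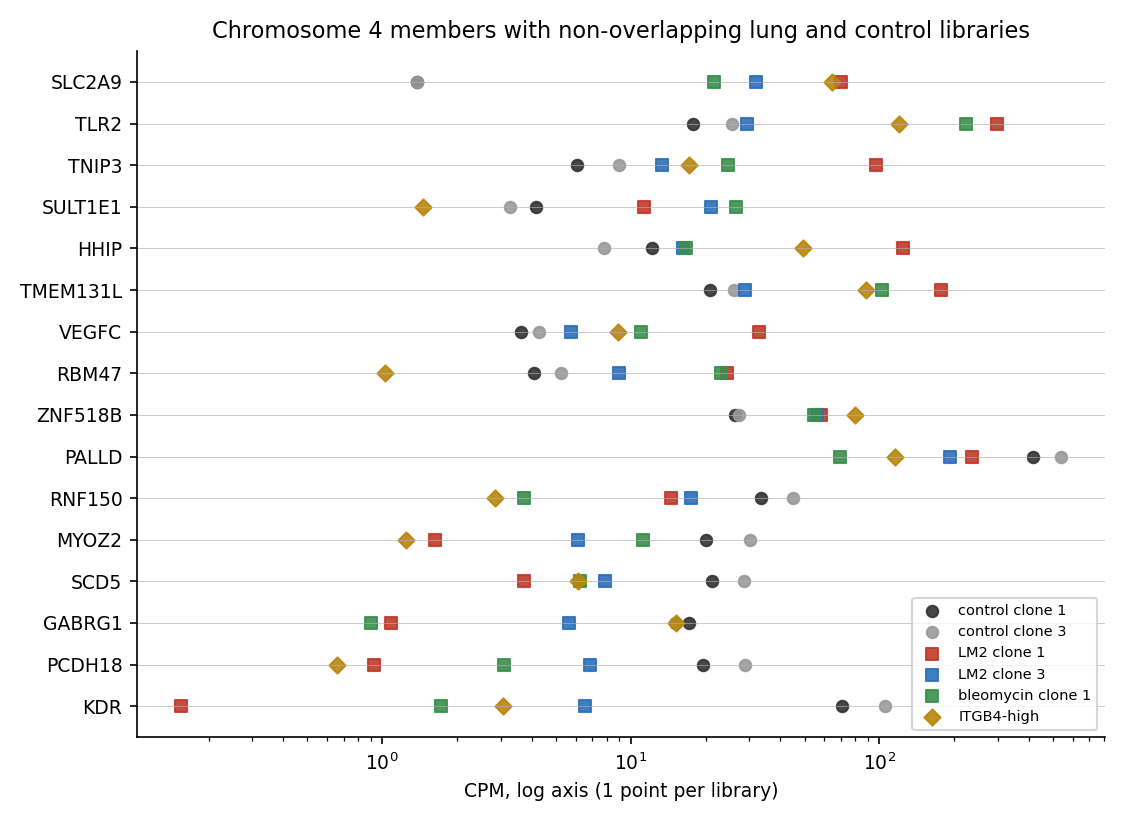
CPM in each of the 6 libraries (log axis, 1 point per library) for ZNF518B and 15 other members named because their 3 lung libraries all lay above or all below both controls. Circles (controls) and squares (lung) do not overlap for any gene by that choice; ZNF518B has its lung points from 54.6 to 58.0 CPM, and KDR spans 0.155 to 105 CPM.

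ITGB4-high cells, which had not been in a lung, stood low on the chromosome. Their median log2 ratio over the members was -0.11 to control clone 1, against 0.03 over all genes, and -0.12 to control clone 3, against -0.01; the 2 ratios share the ITGB4-high library. Of the members, 159 (43.2% against 52.3% of all genes) lay above control clone 1 and 147 (39.9% against 49.1%) above control clone 3. Chromosome 4 ranked 19 of 23 in both. The difference lay on the long arm, with -0.15 to control clone 1, where the short arm stood at 0.01. ITGB4-high was the lowest library for 140 members (38.04%, against 25.5% of all genes). With 1 library against 2, edgeR called 0 of 368 members by adjusted p against 0.0893% of all genes, and 90 (24.5% against 24.5%) by unadjusted p under 0.05. By size alone, 86 members (23.4% against 15.7%) were lower than control clone 1 by 1.5-fold or more and 32 (8.7% against 12.5%) higher. Of the 90, 79 were lower (21.5% against 14.2%) and 11 higher (2.99% against 10.4%). DESeq2 called 56 members (15.2% against 9.32%), of which 51 were lower (13.9% against 6.34%) and 5 higher (1.36% against 2.97%).

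With the clone as a block, some members passed edgeR's threshold for ITGB4-high against control, and they are named although chosen after their values were seen. The ITGB4-high library has no clone in its label and was placed in the block of clone 1, so these calls rest on that choice. SLC2A9 was higher (edgeR adjusted p = 0.0357). ANXA3, a calcium-dependent membrane-binding protein, was at 27.9 and 18.2 CPM in the controls, 22.2, 26.5 and 6.03 CPM in the lung libraries and 0.511 CPM in ITGB4-high (edgeR adjusted p = 0.0390). PLAC8, a small cysteine-rich protein, was at 48.8 and 51.3 CPM, then 20.5, 50.1 and 9.74 CPM, and 0.438 CPM in ITGB4-high (edgeR adjusted p = 0.0420). RNF150 was at 2.85 CPM in ITGB4-high (edgeR adjusted p = 0.0390). The matrix, adhesion and cytoskeleton list had the lowest median in ITGB4-high over control clone 1, at -1.05, with 3 of 27 members above 1. Within it LIMCH1 stood at 182 CPM, SEPT11 at 201 CPM and PALLD at 116 CPM in ITGB4-high.

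The level that set membership fell among genes of similar abundance. Just inside 8 CPM were RELL1 (mean level 8.03 CPM), SPON2 (8.15), TMEM175 (8.15) and NUDT6 (8.58), whose log2 ratios in LM2 clone 1 were 0.89, -0.02, 0.83 and 0.14. Just outside were RASL11B (7.82), PDE5A (7.81), ZBTB49 (7.62) and ATP8A1 (7.30), with -0.14, -2.70, 0.77 and -2.10. The genes on the 2 sides of the level were mixed in direction. All 368 members passed edgeR's filter on low counts.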

How the data were processed

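Polyadenylated RNA of 6 samples was sequenced after a library kit that keeps the strand, per the labels' protocols. The submitters' processing notes name STAR 2.7.1a and hg38. The authors deposited whole-number counts per gene, not normalized. How they counted, with which annotation and strand setting, is not given in the sources used here. Of 58336 gene identifiers, 58216 matched GENCODE 29 (GRCh38), which gave coordinates and types.

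CPM were computed with TMM factors. Ratios are log2 of CPM plus 0.5, lung library less the control of its own clone, with no test. Tests were quasi-likelihood tests of edgeR (version 4.0.16 in R 4.3.3; minimum count 10, 15673 genes, Benjamini-Hochberg, threshold 0.05), with all 6 libraries in each fit, so that groups of 1 take their spread from the groups of 2 (3 residual degrees of freedom for lung against control, 2 for each trigger or ITGB4-high, 1 for the difference between clones). Groups came from the labels. Nothing says how many mice or cultures each library holds, so a p-value speaks for the spread of these libraries alone. Lung and control libraries of 1 clone number come from the same clone, so clone was also fitted as a block. The ITGB4-high library, which has no clone in its label, was placed in the block of clone 1. Over 9517 genes the correlation of the clone deviations of the control and LM2 groups was 0.034. Control libraries differed by a chi-square of 8.67 per degree of freedom, and LM2 libraries by 80.1, so none is a copy.

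Alternatives were RLE factors, library totals, no low-count filter, DESeq2 1.42.0, pseudocounts of 0.1 and 2, membership from 2 or 30 CPM, genes dropped by name kept in, classes of GC content, length and level, and leaving out libraries. On simulated counts for lung against control (15673 genes), 11 of 50 genes changed 2-fold, 49 of 50 changed 4-fold and 15 of 15473 unchanged genes were called. The simulated counts had the same spread for every gene and the same fold in all 3 lung libraries. In the data the LM2 libraries differed more than the controls did, so these shares may not hold for the real libraries. Named were members past the edgeR threshold, the 8 highest and 8 lowest fitted changes among members without overlap of lung and control libraries, the most abundant member of each 10-Mb bin, the 3 most abundant of each function list and 4 genes on each side of the level; 1 named gene is not reported here. The members, lists and tests were chosen with earlier results of these data known.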

Additional observations from a re-analysis of the deposited data

How the results depend on the processing

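The SD of the 3 lung libraries' medians was 0.23, set mostly by the LM2 clone 1 median itself, so it is a wide yardstick. Under every alternative run, the medians of the log2 ratio over the members moved by less than that. In LM2 clone 1 they ranged from 0.26 (library totals, which move the median of all genes from 0.02 to -0.10) to 0.43 (30 CPM or more), and members less all genes stayed at 0.36 under TMM, RLE and library totals. The bleomycin median, near 0, turned to 0.01 from 30 CPM on and to 0.00 with the genes dropped by name kept in. Counts of members called depended on the method. Without the low-count filter edgeR tested 33274 genes and called 68 members for lung against control (18.5% against 6.47% of all genes). It called 66 for LM2 (17.9% against 5.25%), 48 for bleomycin (13.04% against 4.298%) and 83 for ITGB4-high (22.6% against 8.14%). It called 4 for the difference between clones (1.09% against 0.201%). The genes tested there include those with few counts, which the members do not, so the shares are not of like sets. DESeq2 called 46, 25, 23 and 56 members in the first 4 of these contrasts, against 8.06%, 3.92%, 3.57% and 9.32% of all genes. With RLE factors edgeR called 5 for ITGB4-high (1.36% against 0.472% of all genes). With the clone as a replicate block edgeR called 0 for lung against control, 1 for LM2 and 4 for ITGB4-high. The pairing changed no other count. Of all genes, 0.249%, 0.230% and 0.695% were called in those 3 fits, against 0%, 0.272% and 1.09% of members.

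Leaving out 1 library at a time gave 0 to 33 members for lung against control (10 without LM2 clone 1, 33 without LM2 clone 3, 0 without either control or bleomycin clone 1), 0 to 251 for LM2 (74 without LM2 clone 1, 251 without LM2 clone 3), 0 to 138 for bleomycin (138 without LM2 clone 1, 133 without LM2 clone 3) and 0 to 192 for ITGB4-high (192 without either LM2 library). Without an LM2 library the spread comes from the controls alone, and a lone library is assumed to vary as they do; all genes were then called more often too, 40.8% of them for LM2 without LM2 clone 3. The difference between clones gave 0 without ITGB4-high, and the other libraries could not be left out of that fit. For lung against control, the share of members called was 2.72% against 2.497% of all genes without LM2 clone 1. Without LM2 clone 3 it was 8.97% against 6.55%. In the other contrasts without an LM2 library the share of all genes called rose as well. The counts of members there are therefore not read as a result of chromosome 4. Members without overlap of lung and control libraries numbered 172 (46.7% against 48.1% of all genes). With 1 library left out they numbered 198 to 235 (53.8% to 63.9%, against 58.6% to 61.8%), where fewer libraries make non-overlap easier. For the 51 named members, 306 alternatives were run: 273 kept direction and side of the threshold, 29 newly passed it, 4 no longer passed it (ZNF518B each time) and 0 reversed. Depth limits KDR in LM2 clone 1, at 2 counts, and 1 library per clone and condition limits the rest.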

Other observations

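Other transcripts of chromosome 4 gave the following medians of the log2 ratio of a lung library over the control of its own clone. The 41 protein-coding genes from 2 to 8 CPM stood at 0.09 in LM2 clone 1, where the 1538 such genes of all chromosomes stood at -0.23, with 0.04 against -0.07 in LM2 clone 3 and 0.08 against -0.04 in bleomycin clone 1. The 39 genes of chromosome 4 that are not protein-coding, at 2 CPM or more, stood at 0.11 against -0.18 for 929 on all chromosomes in LM2 clone 1, at 0.02 against -0.02 in LM2 clone 3 and at -0.10 against -0.07 in bleomycin clone 1. The antisense RNA UBA6-AS1 was at 19.9 and 20.8 CPM in control clones 1 and 3 and at 44.2, 21.1 and 19.4 CPM in LM2 clone 1, LM2 clone 3 and bleomycin clone 1. NOP14-AS1 was at 12.9 and 11.9 CPM, then 27.0, 10.2 and 9.36 CPM. Both were picked after their values were seen. As the strand setting of the counts was not given, their reads cannot be told apart from those of any gene they overlap. UBA6-AS1 starts at position 67701280, past the end of UBA6 at 67701179, so it does not overlap UBA6. The 23 genes left out by name stood at 0.58, 0.33 and 0.50 in the 3 lung libraries in the same order.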
